A study of Mus musculus with 4 samples.

Results

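The fibroblast growth factor genes Fgf3, Fgf4 and Fgf15 lie side by side on mouse chromosome 7, and nuclear RNA over them was read on a tiling array. The members were the 878 probes of 48316 non-control probes placed in chr7:152000001-152100000 (mm9), chosen by position alone. The probes are 60 bases long and ran from 152006254 to 152088283, mostly in steps of 60 bases, so the ends of the interval carried none. Fgf3 (gene ID 14174) was taken as 152024000-152031000 with 85 probes, Fgf4 (14175) as 152047000-152051000 with 52, and Fgf15 (14170) as 152082000-152087000 with 65. These intervals are approximate and longer than the RefSeq genes, which span 4737, 3860 and 4422 bases in GRCm38, and exons, introns and UTRs were not placed on the probes. The remaining probes fell into the flank before Fgf3 (198), the gap between Fgf3 and Fgf4 (155), the gap between Fgf4 and Fgf15 (306) and the flank after Fgf15 (17). In GRCm38, RefSeq lists the long non-coding Gm26793 between Fgf4 and Fgf15; its position on mm9 is not used here.

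The series compared embryonic stem cells (ESC) of the 46c line with neural progenitor cells (NPC) derived from them by the N2B27 protocol, with 2 arrays per group. 46c is an ESC line that carries a fluorescent reporter of neural commitment, so both groups share 1 line and its reporter. RNA was taken from a chromatin preparation of nuclei, amplified from 250 ng and labelled with Cy3 without regard to strand. The files name no gene for any probe, so none of 40 listed marker and pathway symbols could be matched, and neither the cell type labels nor other FGF pathway genes were checked through them. In such bulk samples, fewer cells of a type and less RNA per cell cannot be told apart. Whether the paired arrays of each group stem from independent cultures is not stated, so every p-value reflects the spread of these 4 arrays alone, and that spread may be technical.

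Fibroblast growth factors are secreted ligands that signal through receptor tyrosine kinases and the ERK cascade. Fgf4 is made by pluripotent cells, where Pou5f1 and Sox2 act on its enhancer, and the ligand it encodes pushes ESC out of the naive state towards differentiation. Fgf3, first known as Int-2, acts in the inner ear, the hindbrain and the tail bud. Fgf15, the mouse counterpart of human FGF19, is expressed in the developing neural tube, and in the adult it is a gut hormone that restrains bile acid synthesis.

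The 250 bases before the RefSeq start are shown for Fgf4, the gene with the largest fall, and for Fgf3, which shares its neighbourhood and was not called. Both genes lie on the plus strand of GRCm38, at chr7:144861136-144861385 for Fgf4 and chr7:144838362-144838611 for Fgf3, and these sequences were not matched to the mm9 probes. Capitals mark matches, on either strand, to any of 4 motifs: the TATA-like TATATA, the GC box spelled GGGCGG, the CCAAT box as written, and the octamer spelled ATGCAAAT.
Fgf4: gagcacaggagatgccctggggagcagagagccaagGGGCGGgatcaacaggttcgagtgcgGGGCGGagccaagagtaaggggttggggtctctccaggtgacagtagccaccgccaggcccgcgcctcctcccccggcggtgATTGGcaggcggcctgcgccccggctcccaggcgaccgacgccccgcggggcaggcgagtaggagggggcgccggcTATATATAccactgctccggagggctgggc
Fgf3: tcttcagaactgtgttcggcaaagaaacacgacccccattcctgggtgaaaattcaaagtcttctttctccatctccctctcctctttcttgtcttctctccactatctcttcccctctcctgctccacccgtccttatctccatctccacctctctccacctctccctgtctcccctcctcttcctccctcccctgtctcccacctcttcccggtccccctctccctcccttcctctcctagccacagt
The Fgf4 sequence held the GC box at 214 and 188 bases before the start, the CCAAT box on the opposite strand at 106, and the TATA-like motif as overlapping matches at 30 and 28. Among 32851 RefSeq promoter stretches of 250 bases, 32.7% held the GC box, 33.8% the CCAAT box, 5.25% the TATA-like motif and 1.60% the octamer. The Fgf3 sequence held none of the 4 motifs and neither sequence held the octamer. The Fgf4 enhancer named above was not located, so the lack of an octamer in these 250 bases says nothing of it. GC content was 71.2% with 21 CG dinucleotides before Fgf4, and 55.2% with 4 before Fgf3, against medians of 52.4% and 6 over all stretches. No Fgf15 stretch was matched.

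Values below are log2 intensities from which the 75th percentile of the array was subtracted, taken over those probes that exceeded background on every array. A level is the mean of these over the probes of a segment, and a change is NPC minus ESC. Over the whole array, 42.5% and 44.6% of the probes were well above background on ESC 1 and ESC 2. On NPC 1 and NPC 2 the share was higher, 54.1% and 54.3%. This mark is set by the scanner program, and 1.36% to 2.42% of the negative control spots carried it. The median change over the 954 features of the fit (the 7 segments here and all windows of 5 kb elsewhere) was -0.34, so a change of that size is the middle of this array. It lay between -0.73 and 0.087 under the other scalings. A call means an adjusted p under 0.05 in limma, with the Benjamini-Hochberg adjustment over all features of the fit. With 2 arrays a group, the smallest p of an exact test is 0.333.

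Fgf4, the ligand that ESC themselves secrete, was high in ESC and low in NPC. On ESC 1 and ESC 2 it stood at 0.17 and 0.024, on NPC 1 and NPC 2 at -2.50 and -2.46. Both ESC arrays lay above both NPC arrays, and the arrays of a group were far closer to each other than the groups. The change was -2.58 (SE 0.13, limma adjusted p = 0.00613), from 0.095 ± 0.10 to -2.48 ± 0.026 (SD, n = 2), a 5.96-fold lower level in NPC. It was the second lowest of 954 features. Of the 7 segments, 4 were called lower and 1 higher, where 28.4% of all features were called lower and 22.2% higher. Without ESC 1 or without ESC 2 the change was -2.51 and -2.65 with adjusted p of 0.134 and 0.139, and with either array left out none of the 954 features was called, so no segment below kept its call then. With normexp background correction and quantile normalization it was -1.38 and still called.

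**Figure D1:**
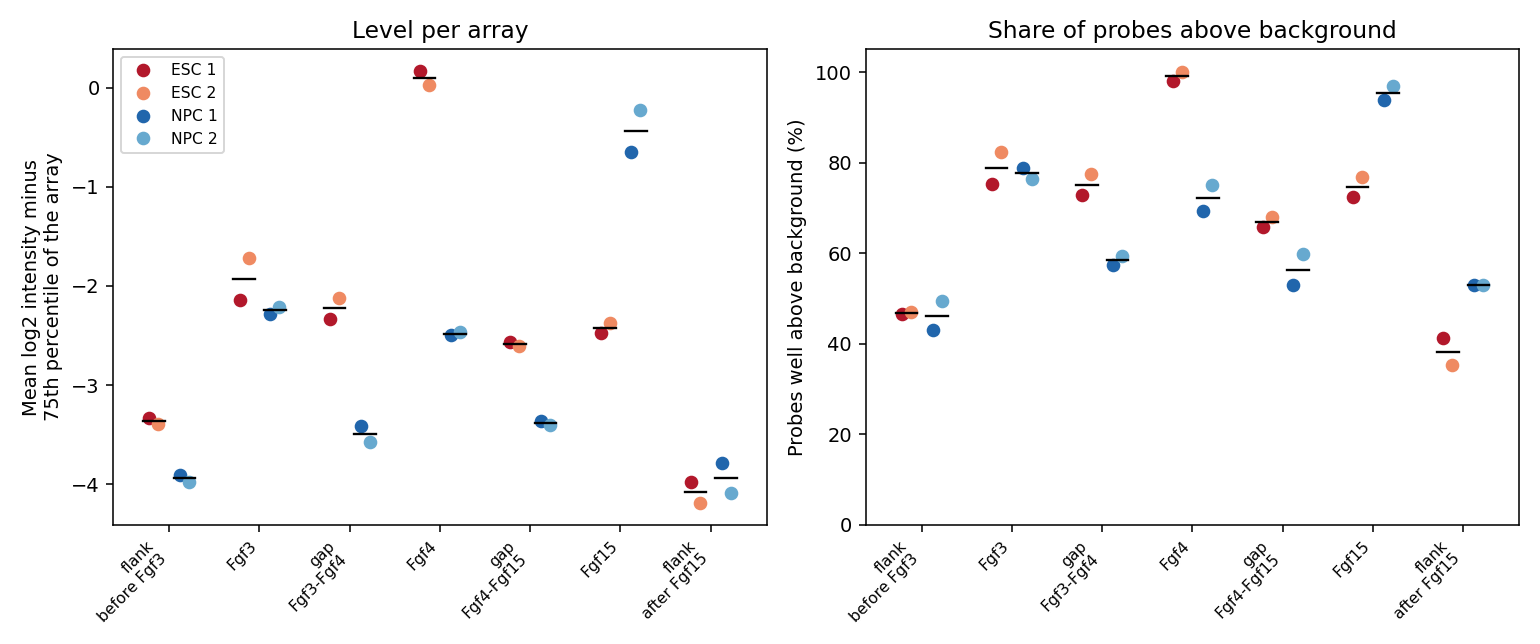
Left, the mean level of each segment on each array (log2 intensity minus the array's 75th percentile). Right, the percentage of probes in it that exceeded background. Points are arrays and black bars are group means (n = 2). The groups stand apart at Fgf4, with ESC near 0.095 and NPC near -2.48, and in the opposite order at Fgf15, while the Fgf3 levels lie close together.

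The fall covered nearly the whole of Fgf4 but was smaller over its first kb. In the first 1 kb window, chr7:152047001-152048000, levels were -0.19 and -0.63 in ESC against -1.37 and -1.30 in NPC, a change of -0.92 (SE 0.25). In the next 3 windows the changes were -3.13 (SE 0.29), -3.29 (SE 0.23) and -3.64 (SE 0.30), 8.75-fold to 12.4-fold lower in NPC. With normexp these 3 changes were -1.93, -1.54 and -1.94. All 4 windows were called, where 8.46% of all windows of the array were called lower. The first passed narrowly (limma adjusted p = 0.0424), and its call did not hold under all 8 scalings. The first kb minus the rest of the gene was -0.51 and -0.94 in ESC, and 1.63 and 1.68 on the NPC arrays, a shift of 2.39 (SE 0.22), or 1.27 with normexp. As different probes differ in brightness, the shift can be read and the order of the 2 parts cannot. This split was chosen after its values had been seen. Not all signal was gone in NPC: 72.1% ± 4.08 of the Fgf4 probes were still well above background there, against 99.0% ± 1.36 in ESC (SD, n = 2), and the shares of the groups did not overlap.

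Single probes showed how uneven the loss was. The probe at 152048701-152048760, the brightest of Fgf4 in ESC, had intensities of 6964 and 5854 in ESC and 292 and 1005 in NPC. Both NPC values were lower by several fold, but they differed so much between themselves that the change of -3.71 (SE 0.74) had a limma adjusted p of 0.0565. Very close by, the probe at 152048821-152048880 read 3577 and 3612 in ESC against 1186 and 1283 in NPC, a change of -1.70 (SE 0.31, limma adjusted p = 0.0443), and it was the brightest Fgf4 probe in NPC. Its call was lost in 8 of the 15 alternatives, with adjusted p up to 0.255. The largest fall of a probe, at 152048641-152048700, was from 403 and 362 to 19.8 and 2.19, the last not well above background (limma adjusted p = 0.0503). It passed in 10 of the 15 alternatives. The largest rise, at 152048132-152048191, rested on ESC 1, which read 2.70 there while the other 3 arrays read 344, 82.5 and 85.3, and it turned to -2.03 without ESC 1. Over all Fgf4 probes, 43 of 52 had both NPC values below both ESC values, where 39.5% of all probes of the array did, and 24 were called lower against 1.58% of all probes. None lay above in NPC on both arrays.

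The signal did not stop at the end of the Fgf4 interval. Fgf4 lies on the plus strand, so the windows after it are on its 3' side, as far as the strand of GRCm38 holds for mm9. Over the first 5 kb beyond the interval, a length set after the values had been seen, the level was -1.11 and -1.41 in ESC against -3.77 and -4.22 in NPC, a change of -2.74 (SE 0.22, limma adjusted p = 0.00802) and a 6.66-fold lower level in NPC. In the main scaling the window with the largest fall of the region lay here, at 152052001-152053000, with -0.27 and -0.45 in ESC against -4.13 and -4.59 in NPC, a change of -4.0 (SE 0.26). With normexp it was -1.66, less than in 152050001-152051000 and 152048001-152049000 inside Fgf4, and the order also changed without ESC 2, NPC 1 or NPC 2. The NPC levels over these 5 kb and in 152052001-152053000 lay below the array's lowest signal above background, -3.73 on NPC 1 and -4.0 on NPC 2. In 152052001-152053000, 25% and 37.5% of the probes were well above background on NPC 1 and NPC 2. The window at 152054001-152055000 followed with -3.78 (SE 0.47) on 4 probes. The next kb held too few probes for a window, and in the window after it, 152056001-152057000, ESC read -3.04 and -2.78 and NPC -4.53 and -4.24. In ESC the longest unbroken run of probes well above background on both arrays, 40 probes from 152048192 to 152051426, crossed the end of the interval. In NPC the runs between the one that ended at 152047380 and the one that began at 152059897 held 3 to 5 probes.

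**Figure D2:**
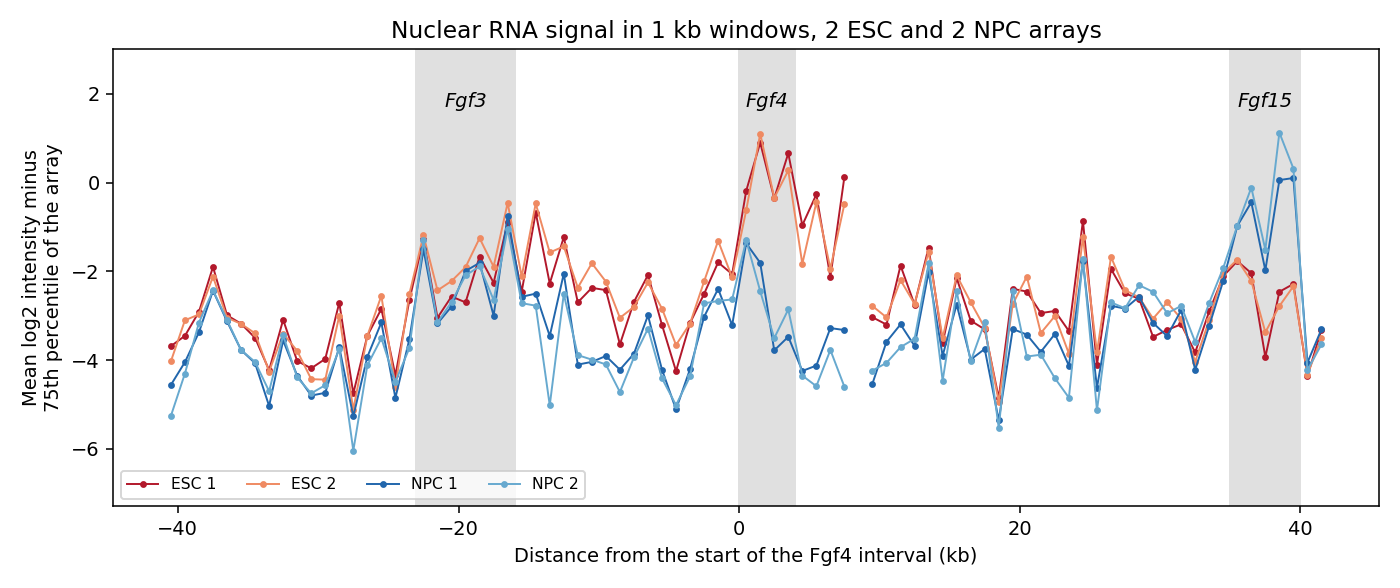
Mean level of each 1 kb window with at least 3 probes (log2 intensity minus the array's 75th percentile) against the distance from the start of the Fgf4 interval in kb. Lines are arrays and grey bands are the gene intervals. The ESC lines stand above the NPC lines over Fgf4 and the kilobases after it, the NPC lines stand above over Fgf15, and the lines run together over Fgf3.

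Fgf15, the family member of the neural tube, went the other way. Its level was -2.47 and -2.37 in ESC 1 and ESC 2, and -0.65 and -0.23 in NPC 1 and NPC 2. Both NPC arrays lay above both ESC arrays, and NPC 2 was the higher of the pair. The change was 1.99 (SE 0.19, limma adjusted p = 0.00792), from -2.42 ± 0.072 to -0.44 ± 0.30 (SD, n = 2), a 3.96-fold higher level in NPC. Ranked by change, Fgf15 was the 100th highest of 954 features. Without ESC 1 or ESC 2 it was 1.93 and 2.04 with adjusted p of 0.134 and 0.139, with normexp 0.99 and with the authors' values 1.22, the last 2 called. Of its probes, 74.6% ± 3.26 exceeded background in ESC against 95.4% ± 2.18 in NPC (SD, n = 2), again without overlap. Over the whole array this share was also higher in NPC, 54.1% and 54.3% against 42.5% and 44.6% in ESC.

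The rise was larger over the last kilobases of Fgf15 than over its first, and no window beyond the interval was called higher. The 5 windows of 1 kb from 152082001 changed by 0.78 (SE 0.22), 1.85 (SE 0.24), 1.91 (SE 0.30), 3.21 (SE 0.39) and 2.52 (SE 0.23), and with normexp by 0.29, 0.98, 0.51, 1.93 and 1.45. All 5 were called higher, the first narrowly (limma adjusted p = 0.0460, and 0.211 with the percentile over all probes). They were the only windows of the region called higher, 5 of 82, where 19.0% of the 4397 windows of the array were. Levels in the fourth of them, 152085001-152086000, were -2.46 and -2.78 in ESC and 0.056 and 1.13 in NPC. In the next kb after the interval, 152087001-152088000, they were -4.36, -4.33, -4.06 and -4.23, a change of 0.20 (SE 0.22) that did not pass. On the other side, the 7 windows from 152075001 to 152082000 changed by -0.19 to 0.46 and none was called. The first kb of Fgf15 minus the rest of it was 1.32 and 1.38 in ESC, and -0.065 and -0.68 on the NPC arrays, a shift of -1.72 (SE 0.31), or -0.97 with normexp; this split was chosen after seeing the values.

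Probe by probe, 44 of 64 Fgf15 probes had both NPC values above both ESC values, where 24.9% of all probes did, and 25 were called higher against 10.8% of all probes. The probe brightest in NPC, at 152085650-152085709, read 218 and 275 in ESC against 1376 and 3251 in NPC, a change of 2.95 (SE 0.54, limma adjusted p = 0.0459). Its call was lost in 5 of 15 alternatives, with adjusted p up to 0.133. The largest rise was at 152086130-152086189, from 2.79 and 3.61 to 74.8 and 265. That probe was not well above background in ESC, so its rise is given as at least 8.66-fold, taking the lowest signal above background of each ESC array as the bound. Its limma adjusted p was 0.0227, but the call was lost with normexp (0.212), the common floor (0.0965) and the authors' values (0.0997). The brightest Fgf15 probe in ESC, at 152082496-152082555 in the first kb, did not pass: it read 784 and 929 in ESC and 775 and 1052 in NPC. The largest fall, at 152082436-152082495 beside it, read 251 and 178 in ESC and 259 and 35.1 in NPC, so it rested on NPC 2.

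**Figure D3:**
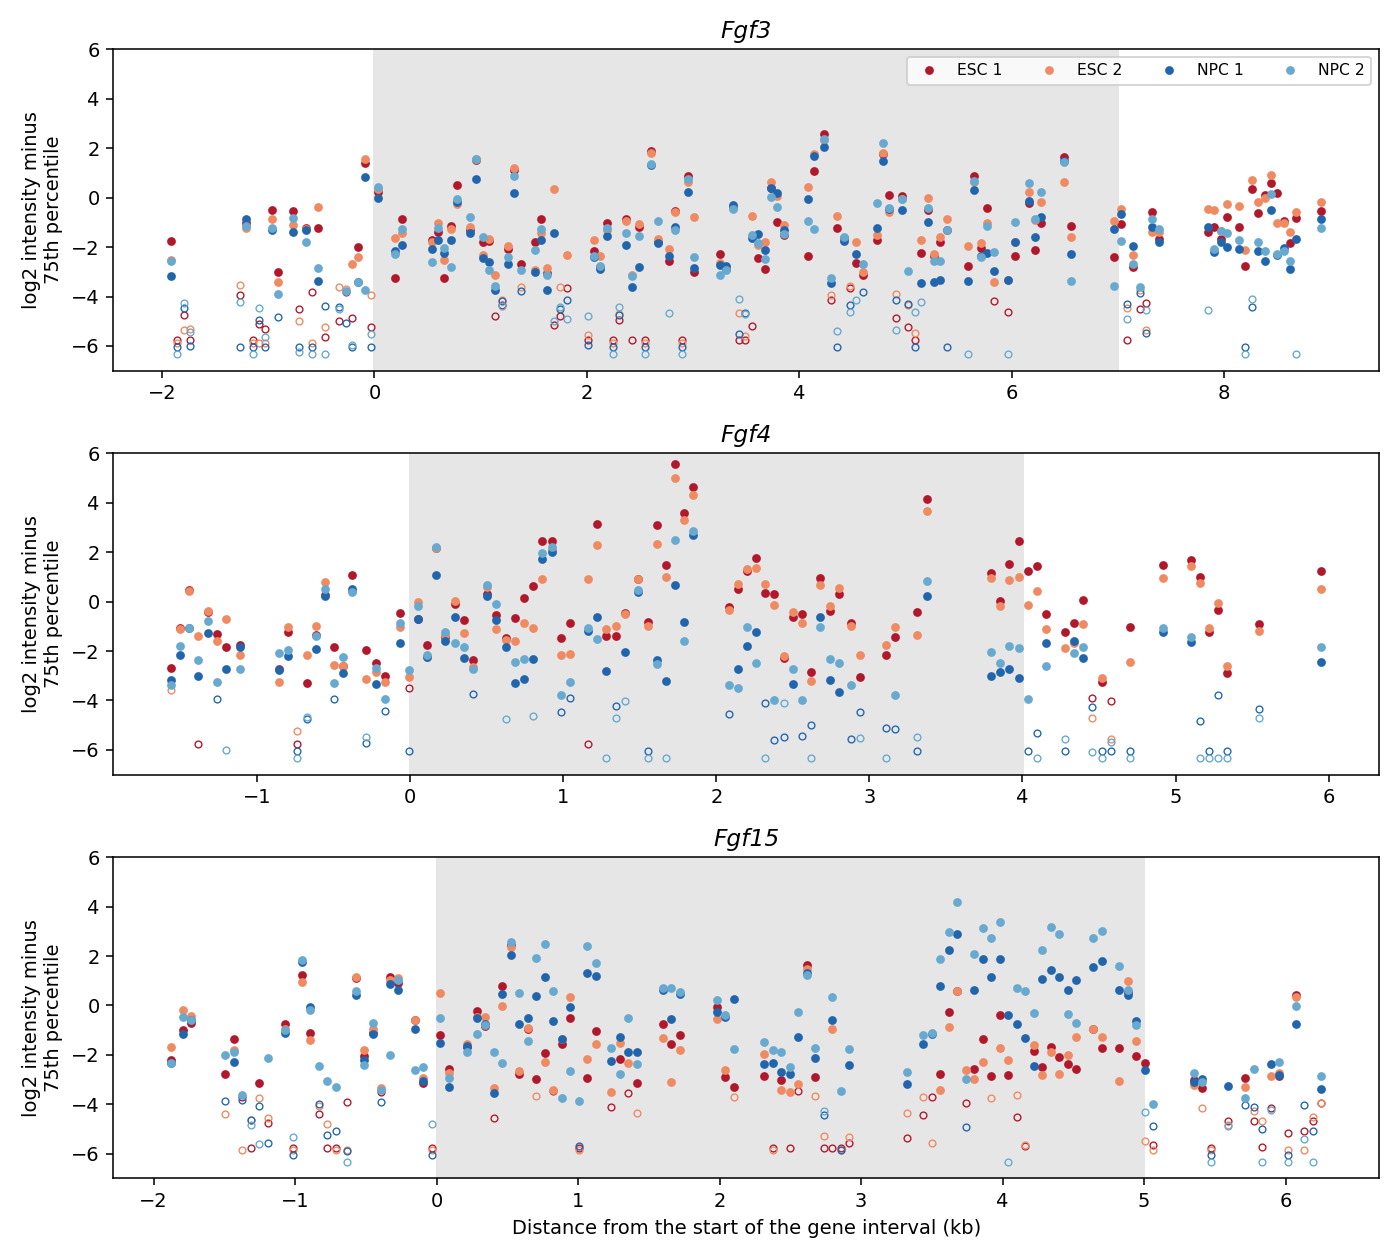
Level of each probe (log2 intensity minus the array's 75th percentile) over each gene interval and 2 kb on either side, against the distance from the start of the interval in kb. Filled points were well above background on that array and open points were not; outlier spots are left out and the grey band is the interval. ESC points lie high over Fgf4 beyond its first kb, NPC points lie high towards the end of Fgf15, and the colours mix over Fgf3.

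Fgf3 carried signal in both groups and was not called. Its level was -2.15 and -1.72 in ESC 1 and ESC 2, and -2.28 and -2.21 in NPC 1 and NPC 2. The ESC arrays were higher, but ESC 1 was nearer to the NPC pair than to ESC 2. The change of -0.31 (SE 0.19, limma adjusted p = 0.205) was within the spread of the ESC arrays and 0.020 from the median of all features. It was -0.70 when the percentile was taken over all probes, -0.61 in the authors' values and -0.24 with normexp, each called lower. With the array medians of the control spots named SRN it was 0.11. In the same settings the median of all features was -0.73, -0.43, -0.12 and 0.087. The Fgf3 probes were well above background at 78.8% ± 4.99 in ESC and 77.6% ± 1.66 in NPC (SD, n = 2), and these shares overlapped.

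None of the 7 windows of Fgf3 was called, with changes from -0.75 to 0.26. The probe brightest in both groups, at 152028207-152028266, read 869 and 917 in ESC and 763 and 914 in NPC, which overlapped. Of the 85 probes, 1 was called lower and none higher, where 1.58% and 10.8% of all probes of the array were. A single lower call thus does not set Fgf3 apart. That probe, at 152028327-152028386, fell from 61.6 and 107 to 2.79 and 4.24. It was not well above background in NPC, which puts it at least 7.28-fold lower (limma adjusted p = 0.0108). The largest rise, at 152027524-152027583, rested on ESC 1, which read 4.02 against 110, 60.7 and 62.0 on the other arrays. Of the 85 probes, 27 had both NPC values below both ESC values and 7 above, against 39.5% and 24.9% of all probes.

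The gaps were not silent, and the one between Fgf3 and Fgf4 fell. ESC arrays read -2.34 and -2.12 there, and NPC arrays -3.41 and -3.57, a change of -1.26 (SE 0.15, limma adjusted p = 0.00862) and a 2.40-fold lower level in NPC. It was -0.52 with normexp and -0.84 with the SRN medians, both called. Of its 16 windows of 1 kb, 13 were called lower, where 8.46% of all windows were. The steepest falls lay close after Fgf3: -2.07 (SE 0.24) at 152032001-152033000, where ESC read -0.68 and -0.47 and NPC -2.50 and -2.78, and -2.32 (SE 0.54) in the next window, where the NPC arrays were at -3.46 and -5.02. The first window after the Fgf3 interval changed by only -0.36 (SE 0.24) and was not called. In ESC a run of 17 probes above background on both arrays reached from 152031296 to 152032946. The remainder of the gap, without its first 5 kb, still changed by -1.17 (SE 0.13, limma adjusted p = 0.00809).

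The gap between Fgf4 and Fgf15 fell less and unevenly. ESC arrays read -2.56 and -2.60, NPC arrays -3.36 and -3.40, a change of -0.80 (SE 0.12, limma adjusted p = 0.0120), and -0.54 (SE 0.12, limma adjusted p = 0.0270) without the 5 kb that follow Fgf4. Of its 30 windows, 10 were called lower and 20 were not, where 8.46% of all windows of the array were called lower. The calls became sparse towards Fgf15. The whole-gap call was lost with the SRN medians (-0.38, adjusted p = 0.0922) and with the median over probes (-0.74, adjusted p = 0.0693). The flank before Fgf3 changed by -0.58 (SE 0.12, limma adjusted p = 0.0254), from -3.34 and -3.40 to -3.91 and -3.98. In this flank 3 of 18 windows were called lower (16.7%), too few to set it apart from the 8.46% of the array. Its probes above background were 46.7% ± 0.36 in ESC and 46.2% ± 4.64 in NPC, which overlapped, and its call was lost in 5 alternatives besides those without an ESC array. The levels of this flank lay near the lowest signal above background, -3.42 and -3.53 on the ESC arrays and -3.73 and -4.0 on the NPC arrays. That lowest signal was itself lower in NPC, and the median change of all features was -0.34. Whether the change of this flank reflects less RNA was not tested. The flank after Fgf15, with 16 probes used, was at -3.97 and -4.19 in ESC against -3.78 and -4.09 in NPC, a change of 0.15 (SE 0.18, limma adjusted p = 0.493).

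**Figure D4:**
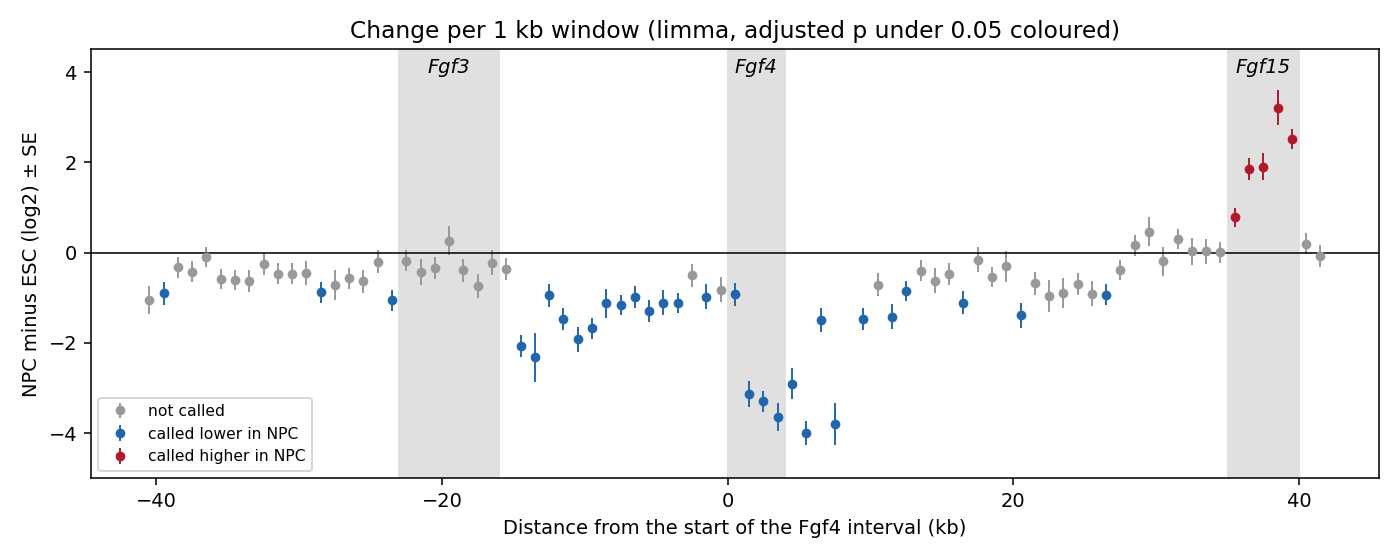
NPC minus ESC of each 1 kb window (log2, with the limma SE) against the distance from the start of the Fgf4 interval in kb. Blue windows were called lower in NPC, red ones higher and grey ones neither way. Of the 30 lower calls, 3 lie in the flank before Fgf3, 13 in the gap after it, 4 in Fgf4 and 10 in the gap after Fgf4, and the 5 higher calls cover Fgf15. Over the whole array 8.46% of the windows were called lower and 19.0% higher.

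Over the whole region 30 of 82 windows were called lower (36.6%, against 8.46% of all windows of the array) and 47 neither way. Lower windows numbered 60 when the percentile was taken over all probes and 16 with the SRN medians. The median change of all features was -0.73 and 0.087 in these settings. Shares of the array are given for the main scaling only, so these counts do not set the region apart. In 16 lower windows the call held under all 8 scalings of the scanner files: 6 in the gap after Fgf3, 3 in Fgf4 and 7 in the gap after Fgf4. Of the 5 higher windows, 4 did so, all but the first of Fgf15. No share of the array was taken for calls under all 8 scalings, so these counts do not set the region apart either. Without ESC 1 or without ESC 2 fewer windows were called, in fits whose spread comes from the NPC pair alone. The changes moved little. In the 5 windows with the largest fall they were -4.09 to -3.03, against -4.0 to -3.13 with all arrays. In the 5 windows of Fgf15 they were 0.76 to 3.37, against 0.78 to 3.21. Among 869 probes, 77 were called lower (8.86%) and 27 higher (3.11%), where 1.58% and 10.8% of all probes of the array were, so the share called higher was below that of the array. These counts were 44 and 9 with a common floor. The higher calls were 8 under normexp and 9 when the percentile took in all probes, again without the share of the array under the same setting.

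Differences between genes on the same array are free of any constant by which an array is scaled, though not of quantile normalization. Fgf15 minus Fgf4 was -2.64 and -2.40 in ESC, and 1.85 and 2.24 on the NPC arrays, so the difference between the genes changed by 4.56 (SE 0.23), 23.6-fold, or by 2.37 (SE 0.15), 5.17-fold, with normexp and quantile normalization. Fgf4 minus Fgf3 was 2.31 and 1.74 in ESC, and -0.22 and -0.25 on the NPC arrays. Fgf15 minus Fgf3 was -0.33 and -0.66 in ESC, and 1.63 and 1.99 on the NPC arrays. The shifts of these 2 differences, -2.26 and 2.30, were -1.13 and 1.24 with normexp. In each of these the groups did not overlap, with an exact permutation p of 0.333 (two-sided), the smallest that 2 against 2 arrays can give. Against the probes of the gaps and flanks, Fgf3 was 0.62 and 1.05 higher in ESC and 1.26 and 1.41 in NPC, a shift of 0.50 (SE 0.22), or 0.11 (SE 0.086) with normexp, where the groups overlapped. In the main scaling the gaps and the flank before Fgf3 changed by -1.26, -0.80 and -0.58, and Fgf3 by -0.31. The shift is therefore no rise of Fgf3 itself. Such differences mix probe brightness with RNA level, so a gene's place above or below another says nothing of their relative amounts.

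Unbroken signal covered more of the region in ESC than in NPC. ESC had 61 runs of at least 3 adjacent probes above background on both arrays, covering 32.4 kb with 394 probes, and NPC had 60 runs covering 22.4 kb with 286. Over the whole array more probes were above background in NPC, and runs elsewhere were not counted. After the run over Fgf4, the ESC runs next in length were those of 17 probes after Fgf3 and of 17 probes at the start of Fgf4. In NPC the 3 longest runs all lay in Fgf15, with 19, 15 and 14 probes, and the first reached from 152083036 to 152084705. The 3 runs that followed, with 13, 10 and 8 probes, lay in or at the end of Fgf3. The ESC run at the start of Fgf3, 12 probes from 152024000 to 152025108, nearly matched the NPC run of 13 probes from the same position.

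Windows of 5 kb elsewhere on the array were ranked by how close their 4 values lay to each gene (Euclidean distance in log2 units over 4 arrays). The distance takes in the levels of different probes, so it describes these 4 values and is no measure of like RNA amounts. The closest to Fgf4 was chr4:55540001-55545000 at a distance of 0.34, with 0.20 and 0.15 in ESC and -2.65 and -2.74 in NPC. The next were chr5:29610001-29615000 at 1.15 and chr6:122660001-122665000 at 1.43, with changes of -1.85 and -1.76. For Fgf15 the smallest distance was 1.36, at chr2:105535001-105540000, with a change of 1.12, followed by chr11:112645001-112650000 at 1.37 and chr2:105515001-105520000 at 1.40. The windows closest to Fgf3 lay at 0.34 to 0.45, the first at chr11:89155001-89160000 with a change of -0.19. These windows were not matched to genes.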

How the data were processed

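Each of the 4 samples (2 ESC, 2 NPC, grouped by title) was hybridised to 1 custom Agilent array in 1 colour. Per the file headers, the deposited intensity values were background-subtracted and floored by Agilent Feature Extraction 11.5.1.1, without scaling between arrays, and probes were placed on mm9. The deposited yes or no marks (unit other) come from that program, per the file headers. A deposited table of the authors' own values, whose range is that of log2 data, served as an alternative; the submitters' processing notes name limma for it, and no other step is known here.

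From log2 intensity, the 75th percentile of the array over 15356 probes well above background on all arrays was subtracted, and the result was averaged over segments, over 1 kb windows with at least 3 probes, or taken per probe, and fitted over the whole array with limma 3.58.1 in R 4.3.3 (lmFit, eBayes, group as the single term, Benjamini-Hochberg). The segment fit also held 5 kb windows elsewhere with at least 5 probes. Probes marked as outliers on any array (416, of them 9 here) were left out. Fits were tested on simulated data with 95 or 100 features changed by each size. The segment fit recovered 87.4% of changes of 1 log2 unit and 100% of changes of 2. The window fit recovered 33% and 98%, and the probe fit 0% of both. Each size was given to 100 of 4397 windows and 100 of 47900 probes, smaller shares than were called in the data. The window and probe percentages therefore do not give the recovery to expect here. A window or probe that did not pass may still differ. A probe not well above background on either array of a group is given as a bound. The normexp alternative used median signals. Arrays limit the precision by their number. Named were all segments, the 5 windows with the largest fall and rise among those called, and per gene the brightest, most fallen and most risen probes; other windows were named after their values were seen. Members, lists and tests were chosen with earlier results of these data known. Sequences are from RefSeq (GRCm38.p6 tables); 2 of 3 genes matched. Figures used matplotlib 3.10.9.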

Additional observations from a re-analysis of the deposited data

How the results depend on the processing

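Fgf4 and Fgf15 kept direction in all 17 alternatives and their call in 15; the exceptions were the fits without ESC 1 and without ESC 2. Changes ran from -2.97 to -1.38 for Fgf4 and from 0.99 to 2.41 for Fgf15. For what follows, the cause was not tested. Fits that drop a single array, and so take the remaining one to vary as the other group does, gave -2.65 to -2.51 for Fgf4, 1.77 to 2.20 for Fgf15, -0.53 to -0.099 for Fgf3, -1.37 to -1.15 and -0.82 to -0.78 for the first and second gap, -0.61 to -0.54 for the flank before Fgf3 and -0.0068 to 0.30 for the flank after Fgf15. Windows then numbered 6 to 38 lower and 1 to 6 higher, and probes 53 to 152 and 21 to 42.

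Fgf3 was called lower with the percentile over all probes (-0.70), normexp (-0.24) and the authors' values (-0.61), and was at 0.11 with the SRN medians. The median of all features in these settings was -0.73, -0.12, -0.43 and 0.087. The flank before Fgf3 lost its call without the chromosome 12 tile (-0.36), with the SRN medians (-0.15), the median change per SRN spot (-0.29), the median over probes (-0.52) and the replicate block (-0.58, adjusted p = 0.0585). The second gap lost it with the SRN medians (-0.38) and the median over probes (-0.74). The flank after Fgf15 was -0.24 with the percentile over all probes, -0.082 with normexp, -0.23 with the authors' values, -0.19 with longer gene intervals, and 0.57, called, with the SRN medians.

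The counts that follow stand without the share of the array under the same setting, so they do not set the region apart. Lower windows numbered 60 with the percentile over all probes, 18 without the chromosome 12 tile and 16 with the SRN medians. They numbered 18 with the per-spot SRN median and 48 with the authors' values. Windows of 2 kb gave 3 higher. Probes were 44 lower and 9 higher with a common floor, 43 and 11 with the replicate block, and 9, 8 and 17 higher with the percentile over all probes, normexp and the authors' values. The replicate block also gave 25 lower and 4 higher windows, without the first window of Fgf15 (adjusted p = 0.0779), and changed no other segment's call; deviations of same-numbered arrays correlated at -0.028 over probes, so the numbers pair nothing visible.

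With the scanner's weaker mark (positive and significant), shares rose to 93.5% in both groups for Fgf3, 92.3% in NPC for Fgf4, and 93.1% and 99.2% in ESC and NPC for Fgf15. With normexp the within-array shifts were -1.13 (Fgf4 minus Fgf3), 1.24 (Fgf15 minus Fgf3), 2.37 (Fgf15 minus Fgf4), 0.11, -1.02 and 1.35 (Fgf3, Fgf4 and Fgf15 minus gaps and flanks), and 1.27 and -0.97 (first kb minus rest, Fgf4 and Fgf15); with medians Fgf4 minus gaps and flanks was -1.58. Runs of at least 5 probes numbered 30 in ESC and 19 in NPC.

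Single named probes turned sign where their change was small or rested on 1 array: the brightest Fgf3 probe (0.17 with the SRN medians, 0.033 with the change per SRN spot), the most risen Fgf3 probe (-0.47 with the authors' values; -0.83 without ESC 1), the most risen Fgf4 probe (-0.077 with normexp, -2.48 with the authors' values, -2.03 without ESC 1), the brightest Fgf15 probe in ESC (0.0032 with normexp, 0.14 without the chromosome 12 tile, 0.35 with the SRN medians, 0.21 with the change per SRN spot, 0.18 without NPC 1) and the most fallen Fgf15 probe (0.10 without NPC 2). Dropping single arrays moved these from -0.83 to 3.62 (most risen Fgf3 probe), -2.03 to 4.65 (most risen Fgf4 probe), -0.33 to 0.18 (brightest Fgf15 probe in ESC) and -2.71 to 0.10 (most fallen Fgf15 probe).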
